A study of Mus musculus with 24 samples.

Results

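Of 20186 probes counted in 24 mouse tissue regions, 150 were selected on their measured levels, because the level in NeuN+ regions of the retina was several times that in microvascular endothelial cells (MECs) of the retina, kidney and heart. They are described here across all regions. Levels are in CPM, the count of a probe per 1000000 counts of its region. A probe qualified with 10 or more counts in at least 5 of the 6 neuronal regions, and with a median neuronal CPM plus 1 at least 3 times the largest of the 3 MEC medians plus 1. The count minimum was met by 2086 probes and the ratio by 167 of those. The 150 with the highest ratio were kept. Since the probes were chosen by these levels, their enrichment over MECs is a description and was not tested.

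Probe barcodes were released by ultraviolet light from regions of formalin-fixed, paraffin-embedded sections of male C57BL/6J mice, with 3 regions per cell type and condition. Diabetic mice had received streptozotocin (50 mg/kg in citrate buffer) at 8 weeks of age, as consecutive injections into the abdomen over 5 days. Non-diabetic littermates received citrate buffer only. Tissue was taken 2 months later. Streptozotocin is toxic to pancreatic beta cells, the source of insulin. Each condition had 3 mice, and the labels do not say which mouse gave which region, so regions of different organs or of both retinal cell types can share a mouse. Retinal MECs (retMECs), renal MECs (renMECs) and cardiac MECs (carMECs) were CD31+ regions, and the neuronal regions were NeuN+ areas in which neuron types were not told apart. For carMEC regions 2 and 3 of the diabetic mice, the labels give the heart without saying MECs.

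NeuN, the splicing protein Rbfox3, is found in the nuclei of most mature neurons. In the mouse retina it marks above all ganglion cells, whose axons form the optic nerve, and some amacrine interneurons, whereas photoreceptors, bipolar cells and Müller glia are the other main cell types of the tissue. CD31 is an adhesion protein of endothelial cells, and in the retina these cells form the inner blood-retinal barrier. No source used here matches the probe IDs to genes. The 150 probes are therefore given by ID and number, their transcripts, sequences and functions are not analysed here, and the identity of the regions could not be checked against marker genes. A region pools many cells, so more cells with a transcript and more transcript per cell cannot be told apart.

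Total counts per region ran from 78053 to 788146 in neuronal cells, from 28722 to 342522 in retMECs, from 217736 to 1451915 in renMECs and from 115269 to 521366 in carMECs. The retMEC regions were processed on plate 1 and all others on plate 2, and 39.9% to 61.0% of reads aligned in retMECs against 79.4% to 96.7% elsewhere, so a difference between neuronal cells and retMECs cannot be told apart from one between plates. In depth, 2 retMEC regions stood apart. Non-diabetic region 1 held 342522 counts and diabetic region 2 held 28722. The ratios below are also given without single regions where these mattered.

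The 150 probes were among the most abundant of the neuronal regions and of middle rank in the kidney and heart. In non-diabetic neuronal regions 1 to 3 they held 13.3%, 11.3% and 12.8% of all counts, and in diabetic regions 15.6%, 14.3% and 16.3%. In retMECs the shares were 0.86%, 1.59% and 2.77% without diabetes and 2.14%, 0.80% and 1.15% with diabetes. In renMECs they lay between 0.41% and 0.53%, and in carMECs between 0.55% and 0.60%. Every neuronal share was therefore above every MEC share, the retMEC shares were intermediate and spread over the widest relative range, and the renMEC and carMEC shares were low and spread little.

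Ranked among all 20186 probes of its region, the typical member stood at the 99.0th to 99.3rd percentile in neuronal regions. It stood at the 54.5th to 92.2nd percentile in retMECs, at the 38.7th to 45.9th in renMECs and at the 43.6th to 49.7th in carMECs. In both organs outside the retina the members thus lay just under the middle of all probes. In renMEC regions their median was 19.3 to 27.6 CPM where the median of all probes was 21.1 to 30.0 CPM, and in carMEC regions it was 32.6 to 35.8 CPM beside 32.6 to 38.3 CPM.

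**Figure D1:**
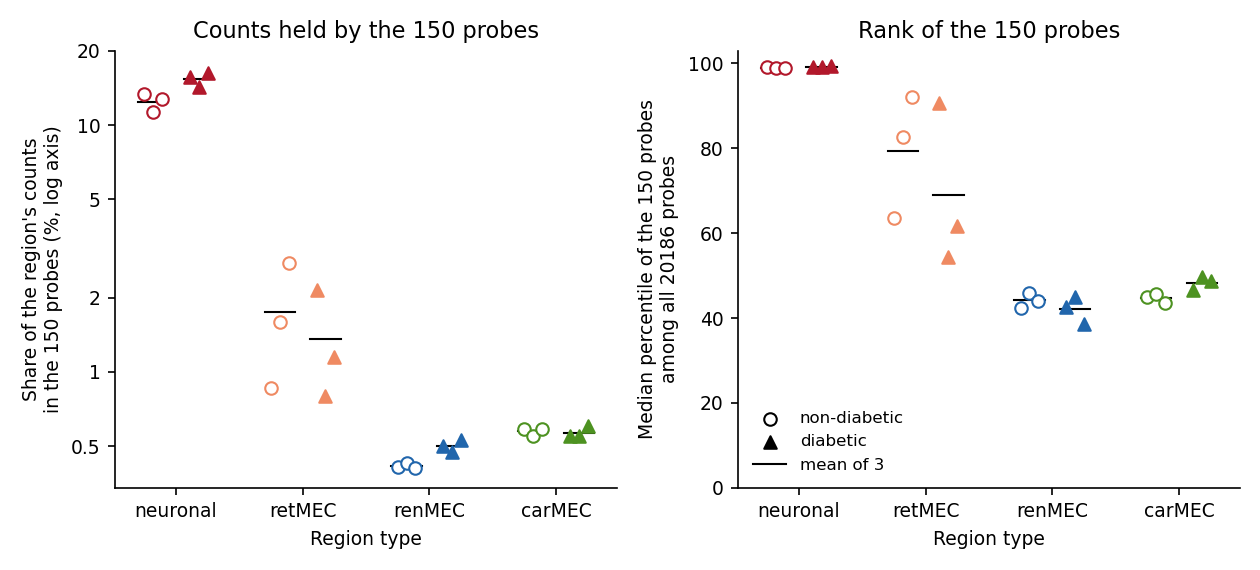
The left panel plots the share of each region's counts held by the 150 probes (%, log axis) and the right panel their median percentile among all 20186 probes, for the 4 region types, with circles for non-diabetic regions, triangles for diabetic regions and a line at the mean of 3. Neuronal regions sit between 11.3% and 16.3% at the top, retMEC regions spread from 0.80% to 2.77%, and renMEC and carMEC regions lie between 0.41% and 0.60%.

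The size of the enrichment differed widely within the group. The ratio of the neuronal level to the highest MEC level ran from 3.25 to 35.4, with a median of 4.81 and quartiles of 3.85 and 8.51. It was at least 5 for 69 members and at least 10 for 22. Near the limit, the ratio of rank 148 was 3.28, that of rank 150 was 3.25, and that of rank 151, the first left out, was also 3.25. The last probe with a ratio of 3 had 3.00 and the next had 2.99, so the group has no natural edge at its lower end.

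Median neuronal levels (CPM plus 1) ran from 115 to 32797 with a median of 319. The medians over the members were 62.5 in retMECs, 23.2 in renMECs and 33.8 in carMECs. The typical member was 4.89 times higher in neuronal cells than in retMECs, 13.0 times higher than in renMECs and 9.09 times higher than in carMECs. The nearest MEC type was the retinal one for 135 members and the cardiac one for 11, with the renal one nearest for the rest. The lowest neuronal region lay above the highest of the 18 MEC regions for 141 members. Among all probes meeting the count minimum, 12.4% were separated in this way, a share set beside the members only as background, since the rule used the same values.

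RetMEC levels of these probes were above those of the other MECs. The median retMEC level was 2.57 times the renMEC level and 1.67 times the carMEC level over the members, beside 1.19 and 1.35 over the other 1936 probes that met the count minimum. The order retMECs, carMECs, renMECs is a description of 18 regions on separate plates and was not tested.

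**Figure D2:**
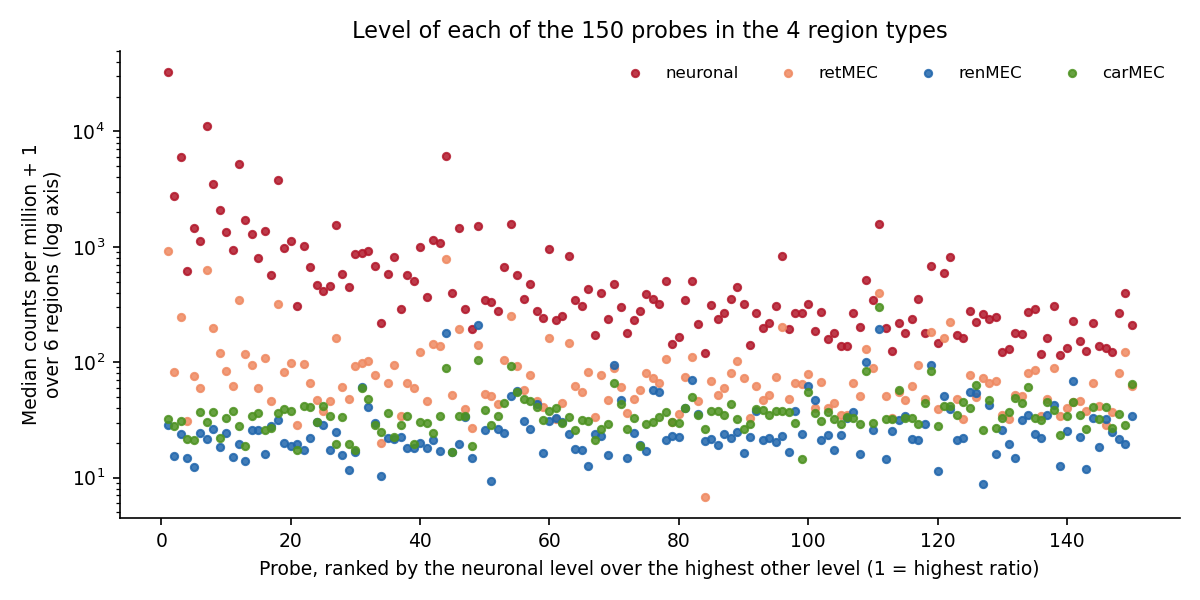
Each of the 150 probes is plotted by its rank (1 is the highest ratio) against its median CPM plus 1 over the 6 regions of each type (log axis), with 1 colour per region type. Neuronal levels run from 115 to 32797 and lie above all others, retMEC levels mostly come next, and renMEC and carMEC levels overlap around 23.2 and 33.8.

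A small number of probes carried much of the neuronal signal. Of the 10 probes with the highest neuronal median among all 20186, 6 were members, and of the top 100, 51 were. The 10 most abundant members held 53.3% of the members' neuronal counts, and 1 of them, RTS0075449, held 23.9%. RTS0075449 was both the member with the highest ratio, 35.4, and the most abundant member, second among all probes.

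RTS0075449 measured 31939, 25899 and 33654 CPM in non-diabetic neuronal regions and 37051, 25893 and 43096 CPM in diabetic ones. In retMECs it measured 172, 1074 and 2872 CPM without diabetes and 2975, 522 and 779 CPM with diabetes. In renMECs it ranged from 7.60 to 36.7 CPM and in carMECs from 18.9 to 46.0 CPM, on 2 to 45 counts and 3 to 19 counts. No neuronal value overlapped with any MEC value, and the retMEC values in turn lay above all those of the kidney and heart. Within retMECs the levels spread over more than a 10-fold range, with non-diabetic region 3 and diabetic region 1 the highest. The same 2 regions also held the highest shares of counts in the 150 probes as a whole, 2.77% and 2.14%.

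RTS0075271, the member with the second highest ratio, 33.1, was less abundant. Its neuronal levels were 2214, 1511 and 2458 CPM without diabetes and 3008, 3510 and 3636 CPM with diabetes. In retMECs it ranged from 61.3 to 140 CPM, in renMECs from 4.59 to 22.8 CPM and in carMECs from 6.52 to 37.9 CPM. Neuronal values again stood clear of all 18 MEC values, and here the diabetic and the non-diabetic neuronal values did not overlap. The MEC values of this probe rest on 1 to 28 counts per region.

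Among the members, levels in retMECs followed those in neuronal cells from probe to probe, and levels in the other MECs did not. Across the 150 members, the Spearman correlation of the median neuronal CPM with the median retMEC CPM was 0.81, and it was 0.05 with renMECs and 0.05 with carMECs. Without non-diabetic retMEC region 1 it was 0.81. The 10 most abundant members had a median of 282 CPM plus 1 in retMECs, compared with 61.0 for the other members. In renMECs the corresponding values were 22.8 and 23.2, and in carMECs 30.5 and 34.0. These correlations are across probes whose values come from the same libraries, the probes are not independent replicates, and the rule itself keeps every retMEC level at least 3 times under the neuronal one. No such correlation is given for other probes, so it cannot be called particular to the members. RetMECs are the MECs that share an organ with the neuronal regions, but they lie on the other plate, and the part of either was not tested.

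**Figure D3:**
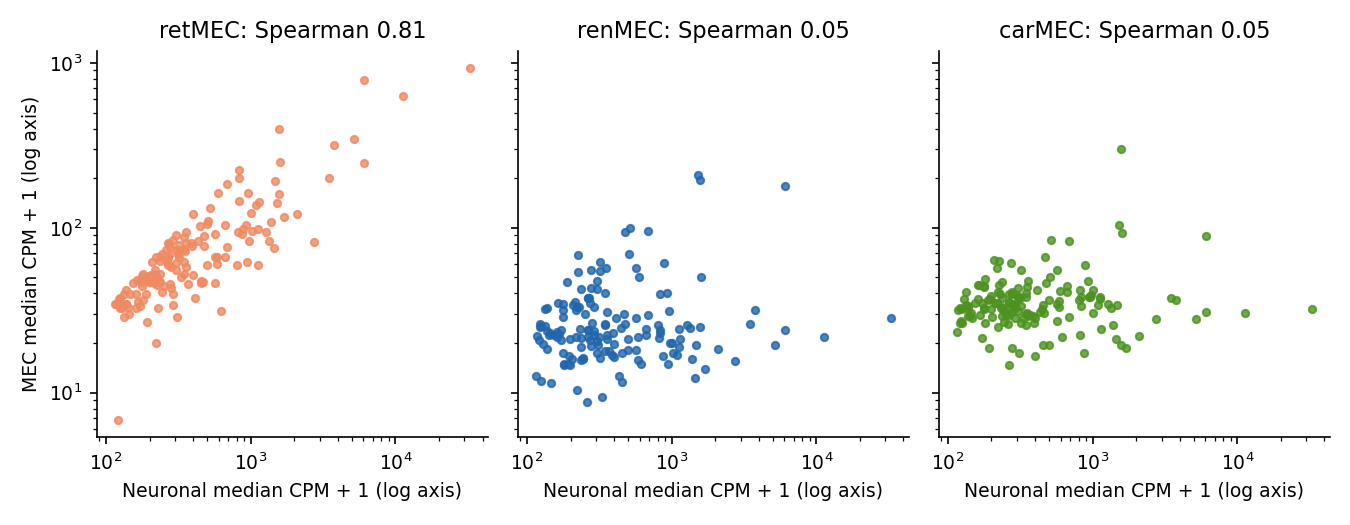
Each point is 1 of the 150 probes, with its median neuronal CPM plus 1 on the horizontal axis and its median CPM plus 1 in retMECs, renMECs or carMECs on the vertical axis of the 3 panels (log axes). Points rise along a line in the retMEC panel (Spearman 0.81) and form a flat band in the renMEC and carMEC panels (0.05 in each).

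Counts behind the retMEC levels were small. Summed over the 6 retMEC regions, a member had 21 to 682 counts, with a median of 43.5. In at least 1 retMEC region 57 members were at 0, and diabetic retMEC region 2, the shallowest, accounted for 44 members at 0. A count of 0 there allows a level of up to 104 CPM.

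Enrichment was measured in both conditions taken apart. In the 12 non-diabetic regions alone, 117 of the 150 had a ratio of at least 3, and the median ratio was 4.43. In the 12 diabetic regions alone, 145 did, with a median of 5.89, and 113 had it in both. Ratios ran from 1.53 to 29.7 without diabetes and from 2.04 to 51.1 with diabetes. Diabetic retMECs were also the shallower ones, with 28722 to 93113 counts compared with 71038 to 342522, and the part of depth in the higher diabetic ratios was not tested.

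Most members differed by under 2-fold between neuronal regions. The highest region was a median of 1.66 times the lowest, and it was under 2 times the lowest for 111 members. Between non-diabetic regions the median coefficient of variation was 10.2%, where counting alone would give 7.89%. Between diabetic regions it was 17.5%, where counting alone would give 12.9%. For the other 1936 probes meeting the count minimum these values were 15.3% against 14.1%, and 25.4% against 24.1%.

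RTS0073269, chosen after its values were seen, had the widest range of the 150. It measured 34.9, 409 and 360 CPM in non-diabetic neuronal regions and 1788, 730 and 594 CPM in diabetic ones, a 51.2-fold range on 13 to 322 counts. Its MEC levels ranged from 10.3 CPM in a renMEC region to 127 CPM in a retMEC region. Its diabetic neuronal values were all above the non-diabetic ones, and its log2 fold change of 1.96 (SE 0.91) had an adjusted p of 0.635 in edgeR's quasi-likelihood test of all probes, with Benjamini-Hochberg adjustment.

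Diabetes was then compared within neuronal regions, a comparison the rule did not use, since it took medians over all 6 regions whatever their condition. Member levels lay slightly higher in diabetic regions, but no member passed the test on its own. The median member level was 317, 295 and 286 CPM in non-diabetic regions and 366, 359 and 362 CPM in diabetic regions, so the conditions did not overlap. The median over all 20186 probes was 26.8 to 29.2 CPM in non-diabetic regions and 23.8 to 25.6 CPM in diabetic ones. This median falls on a few whole counts, and 3 counts are 17.8 to 38.4 CPM in diabetic regions, so that difference is not resolved. The median deviation from a member's own mean (log2) was -0.04, -0.19 and -0.14 in non-diabetic regions and 0.14, 0.18 and 0.16 in diabetic ones. For the other 1936 probes it lay between -0.07 and 0.10, with values of both conditions mixed. The highest of the 6 regions was a diabetic one for 145 members and for 70.5% of the other 1936 probes. The lowest region was a diabetic one for 47 members and for 57.5% of the other probes. Diabetic region 2, the shallowest, was the highest for 60 members and the lowest for 25.

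All 3 diabetic regions lay above all 3 non-diabetic regions in CPM for 52 members, where 10.2% of the 2086 probes meeting the count minimum did so. For 0 members did all diabetic regions lie below, where 4.75% of those probes did. The share of counts in the 150 probes was 12.5% ± 1.04 (SD, n = 3) without diabetes and 15.4% ± 1.01 (n = 3) with diabetes. Without RTS0075449 it was 9.70% ± 0.76 and 12.3% ± 0.26. No test was made on a summary of the members.

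In edgeR's quasi-likelihood test of 4135 probes, 6 probes rose and 45 fell in diabetic neuronal regions at a Benjamini-Hochberg adjusted p under 0.05, or 1.23% of those tested. All 150 members were tested and 0 were called. At an unadjusted p under 0.05, 26 members were higher and 0 were lower, compared with 3.7% and 5.76% of all probes tested. The 26 became 8 without non-diabetic region 2, where 90 of all 3237 probes tested were higher. They became 13 without non-diabetic region 3 (101 of 3098 probes) or diabetic region 3 (130 of 7003). Without diabetic region 2 they became 64 (305 of 6981). The log2 fold change was positive for 138 of the 150 members, compared with 48.9% of all probes tested. Its median was 0.27 over the members and -0.01 over all probes.

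Abundance was set beside this difference, because members are more abundant than most probes. The 102 probes outside the group that were at or above the members' median level had a median of 0.04 on the same scale, and 52.9% of them were positive. Members at or above that level had a median of 0.34 and 74 of 75 were positive. Members below it had a median of 0.22 and 64 of 75 were positive.

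**Figure D4:**
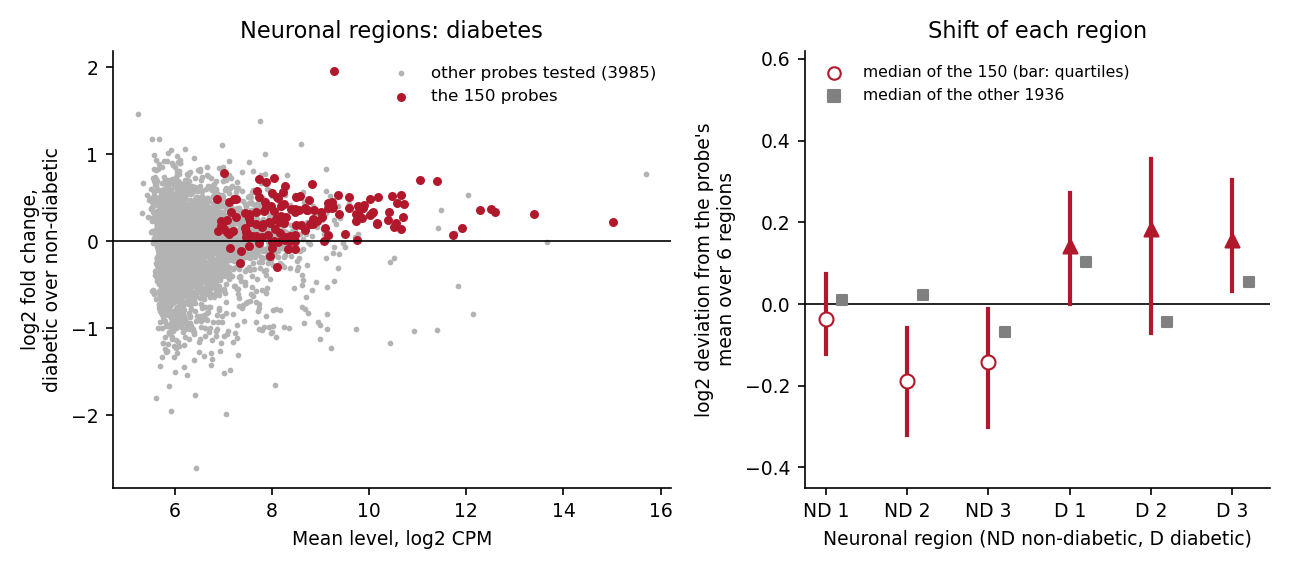
The left panel plots the log2 fold change (diabetic over non-diabetic neuronal regions, 3 against 3) against the mean level (log2 CPM) for 4135 probes tested, with the 150 members in red, 138 of them above 0. The right panel plots, for each neuronal region, the median log2 deviation of the 150 from each probe's mean over the 6 regions (bars are quartiles, circles non-diabetic, triangles diabetic) beside that of the other 1936 probes (grey squares).

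By p, the first members with a positive log2 fold change were RTS0079941 and RTS0073661. RTS0079941 measured 405, 321 and 356 CPM in non-diabetic and 500, 666 and 582 CPM in diabetic neuronal regions, on 52 to 253 counts. The groups did not overlap, and its log2 fold change was 0.66 (SE 0.21) with an adjusted p of 0.109 in edgeR's quasi-likelihood test. Outside neuronal regions it was at or below 75.2 CPM.

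RTS0073661 measured 1983, 1380 and 1472 CPM in non-diabetic and 2172, 3728 and 2323 CPM in diabetic neuronal regions. The groups did not overlap here either, and diabetic region 2 was the highest. Its log2 fold change was 0.70 (SE 0.23), with an adjusted p of 0.116 in edgeR's quasi-likelihood test. RTS0075271, the member with the second highest ratio, had a log2 fold change of 0.70 (SE 0.23, edgeR adjusted p = 0.129), and RTS0075449 had 0.22 (SE 0.26, edgeR adjusted p = 0.925).

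Among the few members with a negative log2 fold change, RTS0069193 and RTS0073268 came first by p. RTS0069193 measured 301, 296 and 254 CPM without diabetes and 165, 167 and 339 CPM with diabetes, and diabetic region 3 was above all non-diabetic regions. RTS0073268 measured 239, 119 and 139 CPM without and 79.3, 167 and 178 CPM with diabetes, so the groups overlapped. Their log2 fold changes were -0.29 (SE 0.24) and -0.25 (SE 0.28), with edgeR adjusted p of 0.835 and 0.908.

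Depth moved with condition in these regions. Non-diabetic neuronal regions held 372615, 788146 and 244551 counts and diabetic ones 163911, 78053 and 168298, so the ranges did not overlap. After thinning of each neuronal region to 78053 counts, the median over the members was 0.32 beside 0.09 over all probes tested. There edgeR called 0 members, where 2 of 852 probes rose and 6 fell. At an unadjusted p under 0.05, 27 of 149 members were higher and 0 lower, beside 68 higher and 55 lower of the 852 probes. The number of members called depended on the scaling and the test. With TMM factors, 7 members were higher and 0 lower at an adjusted p under 0.05 (1.5% of all probes, 24 higher and 38 lower). With total counts it was 2 higher and 0 lower (1.57% of all probes, 13 higher and 52 lower). With DESeq2 it was also 2 higher and 0 lower (0.532%, 7 higher and 15 lower). Among probes with 10 counts or more in all 6 regions, 4 of 143 members were higher and 0 lower (6.04%, 24 and 27). Without diabetic region 2, the shallowest neuronal region, 3 members were higher and 0 lower (0.817%, 20 and 37). The methods' t-test, at an unadjusted p under 0.05 and a 1.5-fold change, found 6 higher and 0 lower (6.21%, 201 and 1052). After Benjamini-Hochberg adjustment it found 0 members, where 0 of 20185 probes were higher and 2 lower.

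The members were then followed in diabetic MECs, where most had too few counts to be tested. In retMECs 26 of the 150 passed the filter on low counts, and edgeR's quasi-likelihood test called 0 of them, as it called 0% of 699 probes. By unadjusted p (under 0.05), 0 members were higher and 0 were lower, compared with 3% and 0.143% of all probes, and DESeq2 also called 0. By unadjusted p, DESeq2 had 5 of the 26 lower and 0 higher, beside 21 lower and 22 higher of all 699 probes. Its median was -0.51 over the members and -0.02 over all probes. Without non-diabetic region 1, edgeR had 6 of 39 members lower and 0 higher, beside 32 lower and 28 higher of 826 probes. In the fit of all 6 regions the median log2 fold change was -0.20, beside 0.37 over all probes tested, but leaving out non-diabetic region 3 gave 0.46 and leaving out diabetic region 1 gave -1.21. These 2 regions were also those with the highest share of counts in the 150 probes.

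In renMECs 53 members passed the filter and 0 were called by edgeR, where 3.71% of 9486 probes were. By unadjusted p, 4 members were higher and 4 were lower, compared with 3.91% and 12.3% of all probes, and DESeq2 called 0, with no adjusted p for 47 of the 53. Their median log2 fold change of -0.07 lay close to the -0.09 of all probes tested, and both turned positive with total counts (0.18 and 0.16). The share of renMEC counts in the 150 probes was 0.42% ± 0.01 (SD, n = 3) without and 0.50% ± 0.03 (n = 3) with diabetes, and the median CPM of all probes was also higher with diabetes, at 27.6 to 30.0 compared with 21.1 to 22.8. In carMECs 15 members passed, and edgeR called 0 where it called 0.924% of 3247 probes. By unadjusted p, 0 members were higher and 2 were lower there, compared with 2% and 6.28% of all probes. DESeq2 called 0, with no adjusted p for 14 of the 15, and the median was -0.10 over the members and -0.11 over all probes. With TMM factors the carMEC medians were 0.09 and 0.09.

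Whether diabetes acted differently on the members in neuronal cells and in retMECs was tested as a difference of the 2 diabetes effects in 1 model of all 24 regions. Of 11299 probes, 0.283% were called, with 1 probe (0.00885%) more positive in neuronal cells and 31 more negative. The 1 probe was a member, RTS0079542, at rank 84 by ratio. The rule had used the same retMEC values, including its 0 counts in the diabetic regions. Its retMEC median plus 1, 6.84 CPM, was the lowest of the members, as was its ratio in non-diabetic regions alone, 1.53. Its call and its membership are therefore not independent. DESeq2 called 0 members. All 150 members entered this model, but most did so through their neuronal counts, since only 26 passed the filter in retMECs alone and RTS0079542 was not among them. The p-values do not account for mice that gave both cell types.

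RTS0079542 measured 126, 108 and 102 CPM in non-diabetic and 134, 141 and 113 CPM in diabetic neuronal regions. In retMECs it had 24, 1 and 6 counts without diabetes (70.1, 11.7 and 84.5 CPM) and 0 counts in each of the 3 diabetic regions. In renMECs it ranged from 13.8 to 30.4 CPM and in carMECs from 18.9 to 33.4 CPM, with counts in every region. The neuronal groups overlapped. In single diabetic retMEC regions a count of 0 allows 32.2, 104 and 66.7 CPM, so overlap of the retMEC groups cannot be judged at this depth. Over the group, 31 counts in 499217 (62.1 CPM) stood against 0 in 166793, which allows up to 18.0 CPM. The summed non-diabetic level was 3.45 times that limit. This value leaves out the counting error of the 31 counts and the spread between regions. Without diabetic region 1, which held 93113 of the 166793 diabetic counts, the limit was 40.7 CPM and the non-diabetic level 1.53 times it. The adjusted p was 0.0284 in edgeR's quasi-likelihood test.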

How the data were processed

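Regions of sections hybridised with the GeoMx Mouse Whole Transcriptome Atlas were illuminated, and the released probe barcodes were sequenced. The deposited values are raw counts per probe and region. The authors' software (GeoMx NGS Pipeline 2.3.4, according to the submitters' processing notes) aligned reads to barcodes and merged reads with the same molecular identifier. The 75th percentile scaling and gene exclusion of the methods are not in these counts. Unlisted probes were taken as 0.

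Groups came from the sample labels. Members, lists and tests were chosen with earlier results of these data known. Probes were named by a rule: the 2 members with the highest ratio, and for diabetes in neuronal cells the 2 members of each sign with the smallest p. Outside this rule, RTS0079542 was named as the 1 member called for a difference of the diabetes effects. RTS0073269 was chosen after its values were seen. No replicates had copied counts, with a chi-square per degree of freedom of 1.06 or more between replicates. Counting alone gives a value near 1, so this check does not exclude replicates from the same material. Where nothing ties regions to mice, p-values measure only the spread between regions.

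For diabetes, edgeR's quasi-likelihood test (edgeR 4.0.16, R 4.3.3, robust fit) was run over all probes, with upper-quartile factors. Probes passed edgeR's filter with its minimum set to 10 counts, and were called at an adjusted p under 0.05 (Benjamini-Hochberg). Each SE was calculated back from the test, as the absolute log2 fold change over the square root of the F statistic. The fits were also run on simulated counts, with changes larger than the members' median difference, and no result here rests on that run. Alternatives were TMM, total counts, DESeq2 1.42.0, the methods' t-test, a replicate block, other filters, 1 model of all regions, thinning of the neuronal regions (chosen after seeing the data) and leaving out each region. Members were found in Python 3.11.15. Limits of 3 counts at a count of 0 cover counting error only.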

Additional observations from a re-analysis of the deposited data

Results flagged for a closer look

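The diabetes effect on RTS0079542 differed between neuronal cells and retMECs, by 6.99 on the log2 scale (SE 1.67) in edgeR's fit. With 0 counts in all 3 diabetic retMEC regions this fitted value and its SE depend on the prior count and measure neither size nor precision. The summed non-diabetic retMEC level was 3.45 times the limit of the diabetic one, and 1.53 times without diabetic region 1. The adjusted p of 0.0284 rests on 31 non-diabetic retMEC counts, of which 24 came from region 1. The same retMEC values went into the rule that made this probe a member. The call was lost with DESeq2 and when any of 6 single regions was left out, as given in the account of the processing.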

How the results depend on the processing

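The counts gave no sign that replicate numbers pair the regions: in 0 of 28 pairs of groups were all same-numbered correlations over 0.1. The closest pair, diabetic with non-diabetic renMECs (0.16, 0.12 and 0.08), cannot share a mouse. Low correlations between different cell types do not exclude a shared mouse, so pairing remains unknown. With a replicate block, 1 of 53 members was lower in diabetic renMECs and 0 were higher, where 0 were called without it. Of all 9486 probes tested there, 498 were lower and 75 higher with the block. In neuronal regions the block left 0 members called, with a median log2 fold change of 0.26, and it changed no other call of a member. The number of members called in diabetic neuronal regions was 7 with TMM, 2 with total counts, 2 with DESeq2 (with no adjusted p for 13 members), 4 among the 844 probes with 10 or more counts in all 6 regions, and 6 by the methods' t-test. It was 0 in the other 5 alternatives that kept all 6 regions. Leaving out 1 region gave 0 to 3 calls. There were 3 without diabetic region 2 (20 higher and 37 lower of 6981 probes) and 1 without non-diabetic region 1 (7 and 27 of 3203). The members' median log2 fold change was 0.37 with TMM and 0.22 to 0.36 with 1 region left out, above that of all probes each time. At an unadjusted p under 0.05 the 26 members that were higher became 61 with TMM, where 285 of 4135 probes were higher. With 1 region left out they became 8 to 64. The lowest number came without non-diabetic region 2 (90 of 3237 probes) and the highest without diabetic region 2 (305 of 6981). Without diabetic region 3, 1 member was lower, where 357 of 7003 probes were. Over the same 844 probes the median log2 fold change was 0.28 for the members beside 0.14 for all. The 1 member whose diabetes effect differed between cell types was not called with DESeq2 (0), and 0 to 1 members were called with 1 region left out. It was lost without non-diabetic retMEC region 1, diabetic retMEC region 1 or 3, non-diabetic neuronal region 2, or diabetic neuronal region 1 or 3. In retMECs, renMECs and carMECs, leaving out 1 region gave 0 calls of members each time. Of all probes tested in these fits, 0 were called in retMECs. In renMECs 7 to 68 were higher and 78 to 343 lower, and in carMECs 5 to 10 were higher and 1 to 24 lower. Of the 150 members the rule kept 131 to 142 with other scalings, averages or a pseudocount of 10 CPM, 138 to 150 with 1 region left out, and 60 with every region thinned to 28722 counts. The median ratio was 6.27 with 75th percentile scaling, 6.31 with TMM and 4.46 to 5.60 with 1 region left out. Depth limits what can be said of the members in MECs, where a median of 46.5 of the 150 per region reached 10 counts in retMECs, 70 in renMECs and 20 in carMECs.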
